A study of Mus musculus with 6 samples.

Results

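The osteoblast and chondrocyte lineage genes compared here were Runx1, Runx2, Sp7, Sox9, Alpl, Ibsp, Tnfrsf11b, Acan and Comp. They were chosen as a list of 9 symbols, with earlier results of these data known. A gene's members were all probe sets that the array annotation gave to that gene alone. In all, 8 of the 9 genes had such a probe set, with 17 probe sets between them of 45037 on the array. Runx2 was not analysed here, because the annotation used held no probe set under its symbol. On the brightest probe set of each gene, Runx1 rose and Tnfrsf11b fell in the CD73+ subgroup, and the other 6 genes were not called. Over all genes read this way, 22.8% were called. The brightest Sox9 probe set differed by -0.16. Dimmer probe sets gave a rise of Sox9 and both rises and a fall of Runx1, whose mean over 6 probe sets differed by 0.07 (adjusted p = 0.337 from limma), and the Tnfrsf11b call was lost in 5 of the 6 fits that left out 1 array. The Sox9 probe set that rose and both probe sets of Tnfrsf11b read low, in the range of genes not expected in stromal cells.

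The study set out to assess CD73+ cells for the treatment of myocardial infarction, and its array comparison asked how adipose derived mesenchymal stem cells (AD-MSCs) that carry CD73, an ecto-5′-nucleotidase of the cell surface encoded by Nt5e, differ in transcription from those that lack it. The arrays held 3 CD73+ and 3 CD73- samples of C57BL/6 mouse AD-MSCs. Both subgroups came from groin adipose tissue of adult mice, were separated by flow cytometry on CD73 alone, grown in the same serum-containing medium and hybridised at the fifth passage, with no differentiation medium named for them. The sources used here do not say whether the 3 samples of a subgroup came from separate animals, sorts or cultures. The p-values set a difference against the spread between these samples, which may be technical.

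Osteoblasts, the cells that lay down bone, depend on Runx2 and then on Sp7 (osterix), while chondrocytes, the cells of cartilage, depend on Sox9. Alkaline phosphatase (Alpl) and bone sialoprotein (Ibsp) serve mineralization, osteoprotegerin (Tnfrsf11b) keeps RANKL (Tnfsf11) from its receptor and so limits the formation of osteoclasts, and aggrecan (Acan) and cartilage oligomeric matrix protein (Comp) belong to the matrix of cartilage and tendon. AD-MSCs are commonly driven towards both lineages in culture with inducing media.

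RUNX proteins bind DNA through a short core motif, TGTGGT, and the promoters of Runx1 and Runx2 are shown first because both genes are on the list. RefSeq (build GRCm38.p6) gave 300-base promoter windows, which run from 250 bases before to 50 bases after a start site, for 5 of the 9 genes. There were 7 such windows, of Runx1 and Alpl (2 each), Runx2, Ibsp and Acan. The core motif was searched on both strands (ACCACA is its form on the opposite strand) and is printed in capitals. The 3 RUNX windows below run 5′ to 3′ along the gene and lie on the minus strand at chr16:92826025-92826324 for the upstream start of Runx1, at chr16:92697280-92697579 for its downstream start and at chr17:44814578-44814877 for Runx2.
Runx1 upstream start: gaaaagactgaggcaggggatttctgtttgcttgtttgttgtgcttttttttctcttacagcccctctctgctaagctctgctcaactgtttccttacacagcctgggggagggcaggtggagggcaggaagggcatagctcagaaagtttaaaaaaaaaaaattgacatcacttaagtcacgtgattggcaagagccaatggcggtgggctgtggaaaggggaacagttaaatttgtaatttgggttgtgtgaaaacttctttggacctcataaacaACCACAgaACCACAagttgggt
Runx1 downstream start: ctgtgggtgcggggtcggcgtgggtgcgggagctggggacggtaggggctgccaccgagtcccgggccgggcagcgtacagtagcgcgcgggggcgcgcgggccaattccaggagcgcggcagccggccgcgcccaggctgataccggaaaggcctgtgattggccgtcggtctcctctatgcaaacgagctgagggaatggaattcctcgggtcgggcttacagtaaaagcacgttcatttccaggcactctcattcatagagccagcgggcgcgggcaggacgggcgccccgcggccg
Runx2: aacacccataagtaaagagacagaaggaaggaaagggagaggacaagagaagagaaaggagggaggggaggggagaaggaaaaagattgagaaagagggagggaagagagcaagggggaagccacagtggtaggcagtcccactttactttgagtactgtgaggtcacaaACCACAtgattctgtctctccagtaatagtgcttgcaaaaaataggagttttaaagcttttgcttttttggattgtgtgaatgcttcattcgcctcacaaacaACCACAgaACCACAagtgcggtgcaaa
The upstream Runx1 window held 2 matches and the Runx2 window 3, whereas the downstream Runx1 window and the 4 windows of Alpl, Ibsp and Acan held 0. Of all 32851 windows of this length, 16.8% held at least 1 match, 1.81% at least 2 and 0.183% at least 3. The upstream Runx1 window and the Runx2 window share an identical run of 22 bases just after the start site, shown here because it carries both adjacent matches.
Shared by Runx1 and Runx2: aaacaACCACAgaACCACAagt
This 14-base pair of matches lay in 4 windows of the table, of Runx1, Runx2, Runx3 (1 of its 2 windows) and the gene model Gm16225. A match describes the letters of a window and not a bound site. Which Runx1 probe sets read transcripts from which start was not determined.

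The values are log2 signals of Affymetrix mouse expression arrays, and a difference is the mean of CD73+ minus the mean of CD73- AD-MSCs on that scale. Array medians ran from 5.28 to 5.37, and the correlation across probe sets was 0.997 to 0.998 between arrays of a subgroup and 0.993 between arrays of different subgroups. The brightest probe set of Nt5e, the gene of the sort, read 7.84, 7.60 and 7.74 on the CD73+ arrays, against 7.29, 6.39 and 6.84 on the CD73- arrays. It rose by 0.88 (adjusted p = 0.0218 from limma). The other probe sets of Nt5e differed by 0.03 and -0.12 and did not pass, and the brightest one lost its call without CD73+ replicates 1 or 3 or without CD73- replicate 3. That call held under 11 of 15 alternative analyses other than scaling to the poly-A controls. Of the stromal markers, a list that includes Nt5e itself, 4 of 7 passed as higher in the CD73+ subgroup, against 10.1% of all genes. These were Nt5e, on which the cells were sorted, Thy1 at 0.65, Pdgfra at 0.64 and Pdgfrb at 0.36. When the arrays were scaled to the poly-A control transcripts in place of the deposited scale, the median difference of all probe sets was 0.93 in place of -0.00019, so that 44707 probe sets were higher and 33 lower. Every direction below is relative to the deposited scale, on which most probe sets are centred, and each fall or negative difference of a member has the opposite sign after poly-A scaling.

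Over the whole array, limma with Benjamini-Hochberg adjustment called 18.9% of the probe sets at an adjusted p under 0.05 (9.79% higher, 9.11% lower), and 34.9% had no overlap between the 3 CD73+ and the 3 CD73- arrays. Of the 17 lineage probe sets 7 were called, 4 of them higher and 3 lower, and 11 had no overlap between subgroups. Those 7 calls fell on 3 genes, Runx1 with 4, Tnfrsf11b with 2 and Sox9 with 1. None of the 6 probe sets of Sp7, Alpl, Ibsp, Acan and Comp was called by limma, with 1 of them (an Ibsp probe set) at an unadjusted p under 0.05 and 0 called by the methods' t-test, a pooled-variance test per probe set. On the brightest probe set of each gene, 10.1% of 18193 genes were called higher and 12.6% lower, against 1 and 1 of the 8 lineage genes. In a cell mixture, fewer cells of a type and less RNA per cell cannot be told apart.

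**Figure D1:**
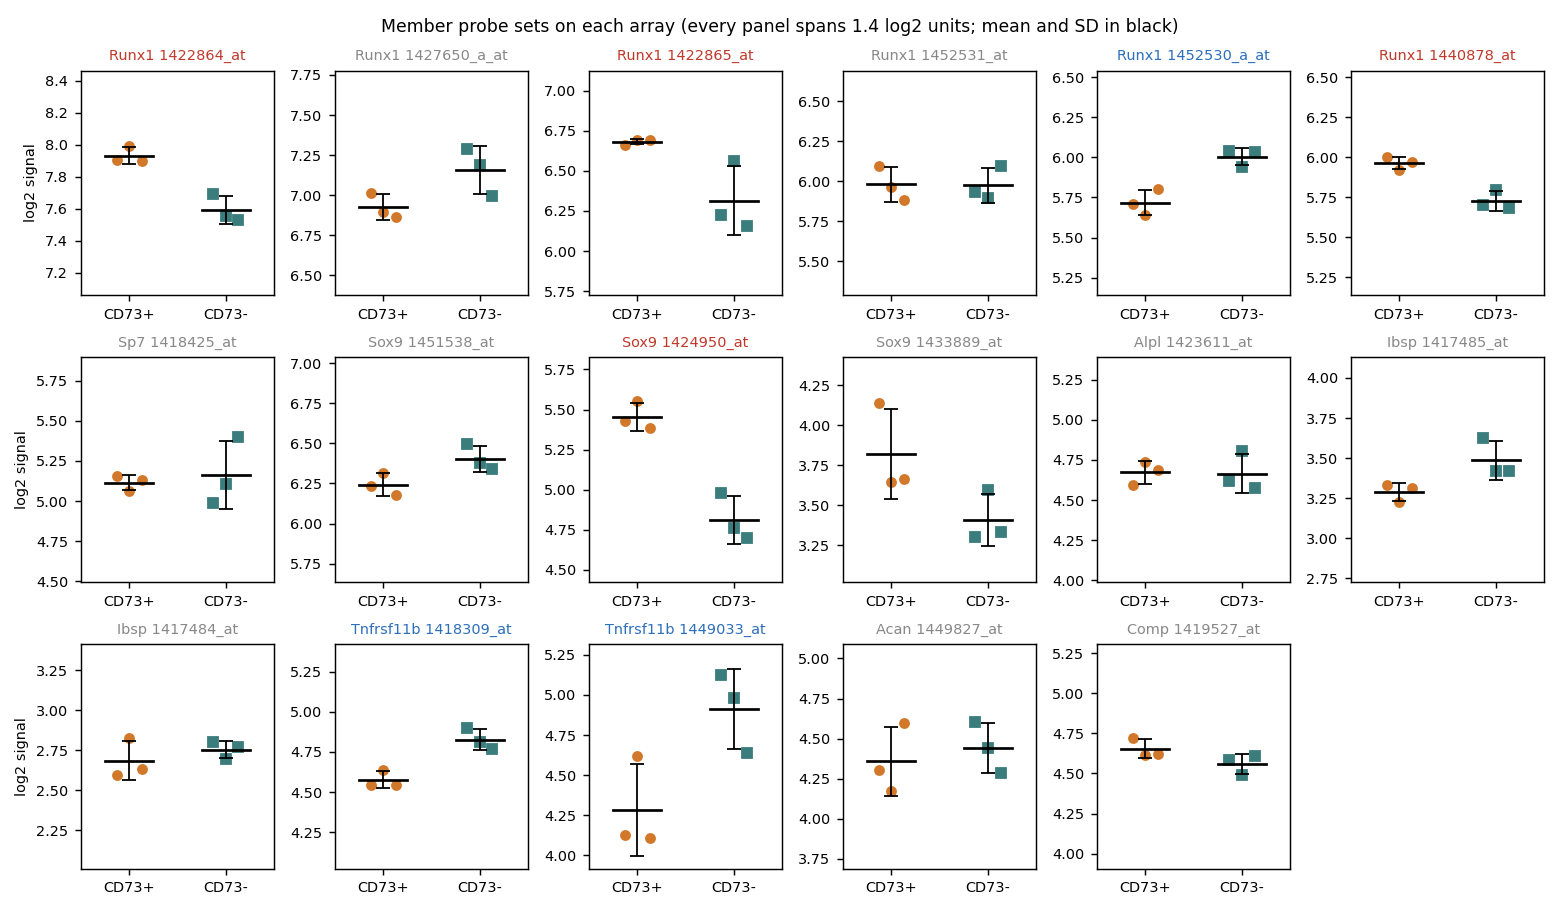
Log2 signal (y axis) of each of the 17 lineage probe sets on the 3 CD73+ arrays (left) and the 3 CD73- arrays (right), 1 panel a probe set with its own y range. Points are arrays, bars are subgroup means with their SD (n = 3), and panel titles are red for a called rise, blue for a called fall and grey where limma made no call, so that 4 titles are red and 3 are blue.

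Most of these genes read low. For orientation, 36 genes not expected in stromal cells, such as those of liver, pancreas, retina and sperm, read from 2.37 to 7.64 with a median of 4.15, and 90% of them lay at or below 6.14. Of the 17 lineage probe sets 13 lay at or below that value, and this held for every probe set of 6 genes, Sp7, Alpl, Ibsp, Tnfrsf11b, Acan and Comp. Probe sets differ in how well they bind, so a low signal does not show that a transcript was absent, and signals of different probe sets are not compared in amount. Of the 36 such genes, 1 was called by limma, Fgb (fibrinogen beta chain) at -0.50 (adjusted p = 0.00701).

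**Figure D2:**
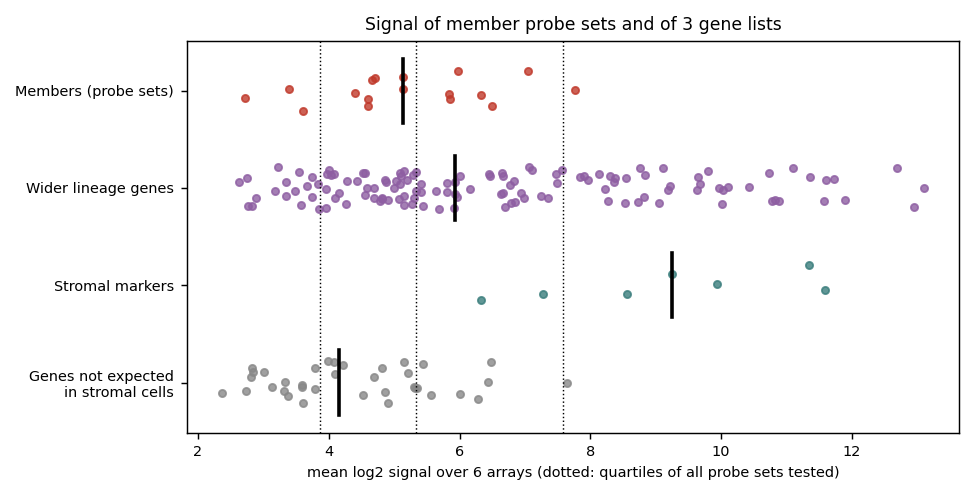
Mean log2 signal over the 6 arrays (x axis) of the lineage probe sets (named members), the wider lineage genes, the stromal markers and the genes not expected in stromal cells, with black bars at the medians and dotted lines at the quartiles of all probe sets tested. The lineage probe sets of Sp7, Alpl, Ibsp, Tnfrsf11b, Acan and Comp lie at or below 6.14, the 90th percentile of the 36 genes not expected.

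Runx1, a DNA-binding RUNX factor best known from blood formation that also acts early in skeletal precursors, had 6 probe sets. Its brightest probe set, 1422864_at, read 7.91, 7.99 and 7.90 on the CD73+ arrays, against 7.69, 7.55 and 7.53 on the CD73- arrays. All CD73+ arrays were above all CD73- arrays. It averaged 7.93 ± 0.0518 in CD73+ and 7.59 ± 0.0868 in CD73- AD-MSCs (SD, n = 3 each), a difference of 0.34 (SE 0.0665, 95% interval 0.18 to 0.49), or 1.26-fold (adjusted p = 0.0115 from limma). This rise passed under all 15 alternatives other than poly-A scaling, and its adjusted p without any 1 array was at most 0.0493.

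The other Runx1 probe sets did not all follow it. Probe set 1422865_at, which the annotation ties to the same transcript record as 1422864_at, read 6.66, 6.69 and 6.69 on the CD73+ arrays, against 6.22, 6.56 and 6.16 on the CD73- arrays. Its subgroups did not overlap and it rose by 0.37 (adjusted p = 0.0472 from limma), with CD73- replicate 2 closest to the CD73+ arrays. Probe set 1440878_at read 6.00, 5.92 and 5.97 on the CD73+ arrays, against 5.70, 5.80 and 5.68 on the CD73- arrays. It rose by 0.24 (95% interval 0.10 to 0.38, adjusted p = 0.0303 from limma), again with no overlap. Both calls were lost when any 1 array other than CD73- replicate 2 was left out, at adjusted p of 0.102 to 0.142 for 1422865_at and 0.0677 to 0.115 for 1440878_at. Of 15 alternatives other than poly-A scaling, they passed under 3 and 6.

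Probe set 1452530_a_at of Runx1 ran the other way, with 5.71, 5.64 and 5.80 on the CD73+ arrays, against 6.04, 5.94 and 6.03 on the CD73- arrays. Every CD73+ array was below every CD73- array, and the probe set fell by 0.29 on the log2 scale (95% interval -0.44 to -0.13, adjusted p = 0.0207 from limma). The call was lost without CD73+ replicates 1 or 2 or CD73- replicates 1 or 3, at adjusted p of 0.0522 to 0.0804, and it held under 11 of the 15 alternatives. Probe set 1452531_at, tied to the same transcript record, read 6.10, 5.97 and 5.88 on the CD73+ arrays, against 5.93, 5.89 and 6.10 on the CD73- arrays. There the subgroups overlapped, at a difference of 0.0069 (95% interval -0.19 to 0.20, adjusted p = 0.971 from limma).

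The remaining Runx1 probe set, 1427650_a_at, read 7.01, 6.90 and 6.86 on the CD73+ arrays, against 7.29, 7.19 and 6.99 on the CD73- arrays. Its lowest CD73- array lay below its highest CD73+ array, and the difference of -0.23 did not pass (95% interval -0.44 to -0.03, adjusted p = 0.120 from limma). Without CD73- replicate 3, it was -0.32 and passed (adjusted p = 0.0335 from limma). Runx1 thus had 3 probe sets called higher, 1 called lower and 2 not called, and 3 of its probe sets (1440878_at, 1452530_a_at and 1452531_at) lay below 6.14. The differences between its probe sets were not tested, and the mean of all 6 differed by 0.07 (adjusted p = 0.337 from limma over gene means). Of the leukocyte markers, 2 of 7 passed as higher, against 10.1% of all genes, namely Csf1r at 0.49 and Cd14 at 0.50. Ptprc (CD45), which marks all leukocytes, read 3.06 in the CD73+ and 3.19 in the CD73- subgroup. The mean of the leukocyte list was 5.47 to 5.54 on the CD73+ arrays and 5.27 to 5.37 on the CD73- arrays, and its part in the Runx1 result was not tested.

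Sox9, the factor that starts cartilage formation, had 3 probe sets. The brightest, 1451538_at, read 6.23, 6.32 and 6.18 on the CD73+ arrays, against 6.49, 6.38 and 6.34 on the CD73- arrays. The CD73+ arrays were all lower, but by a small margin at the closest arrays, and the difference of -0.16 did not pass (95% interval -0.32 to -0.0026, adjusted p = 0.159 from limma). Probe set 1424950_at, tied to the same transcript record, read 5.43, 5.55 and 5.38 on the CD73+ arrays, against 4.98, 4.76 and 4.70 on the CD73- arrays. Here every CD73+ array was above every CD73- array. It averaged 5.46 ± 0.0875 in CD73+ and 4.81 ± 0.150 in CD73- AD-MSCs (SD, n = 3 each), a rise of 0.64 (SE 0.0894, 95% interval 0.43 to 0.85, adjusted p = 0.00277 from limma). Its signal lay below 6.14, in the range of genes not expected in these cells, so no fold is given. The rise passed under all 14 alternatives that could be run on it other than poly-A scaling. Probe set 1433889_at read 4.14, 3.65 and 3.66 on the CD73+ arrays, against 3.30, 3.60 and 3.33 on the CD73- arrays. Its subgroups did not overlap, CD73+ replicate 1 stood above the other arrays, and the difference of 0.41 did not pass (95% interval 0.07 to 0.75, adjusted p = 0.102 from limma), although it did with an intensity trend (adjusted p = 0.0458). The differences between the Sox9 probe sets were not tested, and their mean differed by 0.30 (adjusted p = 0.0159 from limma over gene means).

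Sp7, the osteoblast factor that acts after Runx2, had 1 probe set, which read 5.15, 5.06 and 5.13 on the CD73+ arrays, against 4.99, 5.10 and 5.40 on the CD73- arrays. The subgroups overlapped, with CD73- replicate 3 the highest array and CD73- replicate 1 the lowest. The difference was -0.05 (95% interval -0.30 to 0.20, adjusted p = 0.817 from limma).

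Tnfrsf11b, the decoy receptor osteoprotegerin, was lower in the CD73+ subgroup on both of its probe sets. Probe set 1418309_at read 4.55, 4.64 and 4.55 on the CD73+ arrays, against 4.90, 4.81 and 4.77 on the CD73- arrays. It fell by 0.25 on the log2 scale (SE 0.0623, 95% interval -0.39 to -0.10, adjusted p = 0.0299 from limma), with no overlap. Probe set 1449033_at read 4.13, 4.62 and 4.11 on the CD73+ arrays, against 5.12, 4.98 and 4.64 on the CD73- arrays. Its highest CD73+ array was just below its lowest CD73- array, and it averaged 4.28 ± 0.288 in CD73+ and 4.91 ± 0.249 in CD73- AD-MSCs (SD, n = 3 each). It fell by 0.63 on the log2 scale (SE 0.169, 95% interval -1.03 to -0.23, adjusted p = 0.0392 from limma). Both probe sets lay below 6.14, in the range of genes not expected in these cells, so no fold is given. Both calls depended on single arrays, and they passed under 7 of 14 (1418309_at) and 8 of 14 (1449033_at) alternatives other than poly-A scaling. For 1418309_at, the call was lost without any 1 array other than CD73- replicate 3, at adjusted p of 0.0527 to 0.110. For 1449033_at, it was lost without CD73+ replicates 1 or 3 or CD73- replicates 1 or 2, at adjusted p of 0.104 to 0.126. The mean of both probe sets differed by -0.44 (adjusted p = 0.0220 from limma over gene means).

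**Figure D3:**
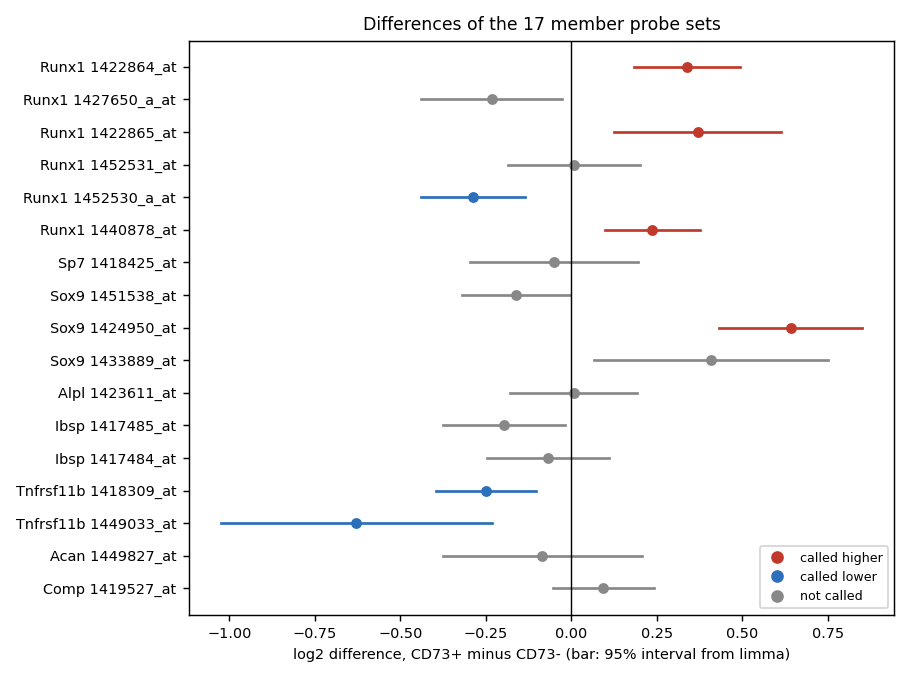
Log2 difference, CD73+ minus CD73- (x axis), of the 17 lineage probe sets with 95% intervals from limma, red where called higher, blue where called lower and grey where not called. Sox9 1424950_at lies farthest to the right at 0.64 and Tnfrsf11b 1449033_at farthest to the left at -0.63.

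Of the matrix and mineralization genes among the 8, namely Alpl, Ibsp, Acan and Comp, limma called no probe set. Alpl, the alkaline phosphatase of mineralizing cells, read 4.59, 4.74 and 4.69 on the CD73+ arrays, against 4.62, 4.81 and 4.57 on the CD73- arrays. The subgroups overlapped, and the 95% interval of the difference ran from -0.18 to 0.19 (adjusted p = 0.969 from limma). Ibsp, bone sialoprotein, read 3.33, 3.23 and 3.31 on the CD73+ arrays, against 3.63, 3.42 and 3.42 on the CD73- arrays, on its brighter probe set. These did not overlap, at a difference of -0.20 that did not pass (95% interval -0.38 to -0.02, adjusted p = 0.126 from limma). On the dimmer Ibsp probe set, 1417484_at, the values were 2.59, 2.83 and 2.63 on the CD73+ arrays, against 2.80, 2.69 and 2.77 on the CD73- arrays, with overlap and a difference of -0.07 (adjusted p = 0.624 from limma).

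Acan, the large proteoglycan of cartilage, read 4.30, 4.17 and 4.59 on the CD73+ arrays, against 4.60, 4.44 and 4.29 on the CD73- arrays. The subgroups overlapped, and CD73+ replicates 2 and 3 lay nearly as far apart as any pair of the 6 arrays. The difference was -0.08 (95% interval -0.38 to 0.21, adjusted p = 0.724 from limma). Comp, a thrombospondin family protein that binds collagen, read 4.72, 4.62 and 4.62 on the CD73+ arrays, against 4.58, 4.49 and 4.61 on the CD73- arrays. Every CD73+ array was above every CD73- array by a small margin, and the difference of 0.09 did not pass (95% interval -0.05 to 0.24, adjusted p = 0.385 from limma).

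**Figure D4:**
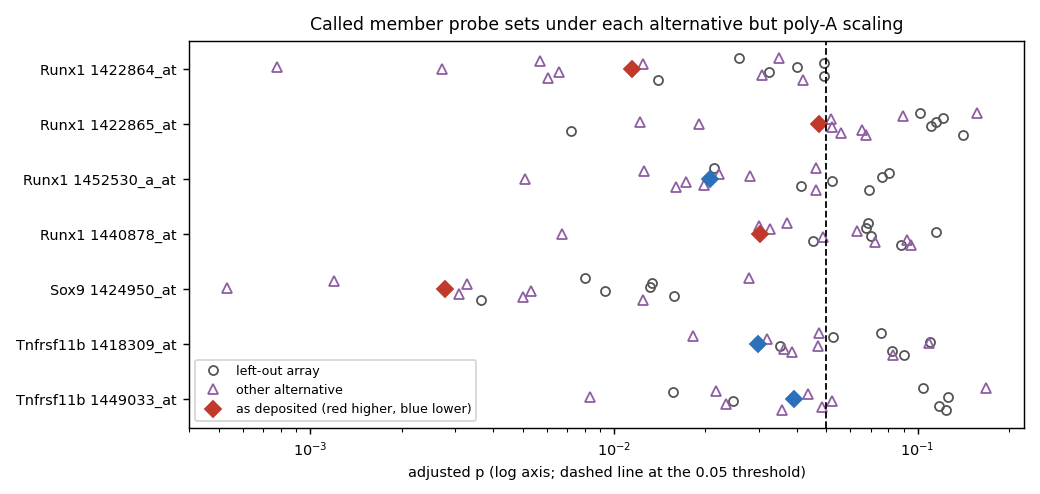
Adjusted p (x axis, log scale, with a dashed line at 0.05) of the 7 called lineage probe sets. Diamonds are the fit to all 6 arrays, red where called higher and blue where called lower, circles are fits without 1 array and triangles the other alternatives except poly-A scaling, and for Runx1 1422864_at and Sox9 1424950_at every symbol lies left of the line.

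Around these genes, 7 lists of other osteoblast, cartilage and tendon genes were read on the brightest probe set of each gene. The lists held 140 symbols, of which 2 (Lect1 and Znf219) are other names of listed genes (Cnmd and Zfp219), and 129 genes were measured, 35 of them higher and 7 lower in the CD73+ subgroup, and 87 were not called. The methods' t-test called 31 higher and 5 lower. The genome-wide share of called genes was 22.8% (10.1% higher and 12.6% lower), the background for each list count below. The lists were chosen with earlier results of these data known, so their counts are descriptive and not an independent test. The median difference of the 129 genes was 0.07, beside -0.02 over all genes, and 60 did not overlap, beside 40.8% of all genes. The 7 falls are relative to the deposited scale and had positive differences after poly-A scaling.

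Among 22 osteoblast transcription factors and cofactors, 2 rose and 3 fell, beside 10.1% and 12.6% of all genes. Prrx1, a homeobox factor of limb and craniofacial mesenchyme, rose by 0.63 (adjusted p = 0.000514), and 4 of its 6 probe sets passed. Twist2, a basic helix-loop-helix factor that holds back osteoblast maturation, rose by 0.36 (adjusted p = 0.00514). Atf4, which osteoblasts need for amino acid import and matrix synthesis, fell by 0.33 (adjusted p = 0.00597) on the brightest of 3 probe sets, all called lower. Foxc2 and Foxc1, forkhead factors of paraxial mesoderm, fell by 0.30 (adjusted p = 0.00917) and 0.23 (adjusted p = 0.0332), the second only with all arrays or without CD73- replicate 3 and at an adjusted p of 0.0809 to 0.114 without any other. The Foxc1 call held under 9 of 15 alternatives other than poly-A scaling. A second Foxc1 probe set differed by 0.0028 (adjusted p = 0.984). The binding partner of all RUNX factors, Cbfb, differed by 0.08 (adjusted p = 0.379), Runx3 by -0.05 (adjusted p = 0.857), Dlx5 by -0.08 (adjusted p = 0.756) and Msx2 by 0.04 (adjusted p = 0.757), and none of these passed in limma.

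Among 22 genes of bone matrix and mineralization, 8 rose and 2 fell, beside 10.1% and 12.6% of all genes. Mgp, matrix Gla protein, an inhibitor of calcification, read 8.66, 8.62 and 8.68 on the CD73+ arrays, against 7.31, 7.38 and 7.11 on the CD73- arrays. It rose by 1.38, or 2.61-fold (adjusted p = 0.000133 from limma), the largest rise of the 129 genes, with no overlap. Col1a1, the main collagen of bone and of fibrous tissue, rose by 0.85 (adjusted p = 0.000214) on the brighter of 2 probe sets, both called, and Omd, osteomodulin, by 0.58 (adjusted p = 0.0415). The Omd call was lost without CD73+ replicates 1 or 2 or CD73- replicates 1 or 2, at adjusted p of 0.108 to 0.132. It held under 8 of 14 alternatives other than poly-A scaling. Slc20a1, a phosphate transporter, fell by 0.52 (adjusted p = 0.00129) on 1 of 3 probe sets, while its others differed by 0.26 and 0.05 and did not pass. Smpd3, a sphingomyelinase needed for mineralization, fell by 0.49 (adjusted p = 0.0133) on 1 of 3 probe sets. Its others differed by -0.32 and -0.14 and did not pass, and the Smpd3 call was lost without CD73- replicate 2 (adjusted p = 0.0521). That call held under 13 of 15 alternatives other than poly-A scaling. Spp1 and Bglap were not analysed here.

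Among 12 genes of osteoclast coupling and of the ligands of osteoprotegerin, 2 rose and 1 fell, beside 10.1% and 12.6% of all genes. Vcam1, an adhesion molecule, rose by 0.63 (adjusted p = 0.000777) on the brightest of 3 probe sets, all higher, and the cytokine Il6 by 0.50 (adjusted p = 0.00196). Efnb2, ephrin B2, fell by 0.30 (adjusted p = 0.00998), on 2 of 4 probe sets. RANKL itself, Tnfsf11, differed by 0.10 (adjusted p = 0.665), its receptor Tnfrsf11a by 0.0021 (adjusted p = 0.992) and the other ligand of osteoprotegerin, TRAIL (Tnfsf10), by -0.07 (adjusted p = 0.795), and limma called none of them.

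Among 19 chondrocyte transcription factors, 4 rose and 1 fell, beside 10.1% and 12.6% of all genes. Sox11 rose by 0.43 (adjusted p = 0.00316), on 6 of 6 probe sets. Gli2, a hedgehog effector, rose by 0.41 (adjusted p = 0.0205) on 1 of 2 probe sets, a call lost without CD73+ replicate 1 or CD73- replicates 1 or 2 (adjusted p of 0.0597 to 0.0706). The Gli2 call held under 11 of 15 alternatives other than poly-A scaling. Mef2d rose by 0.39 (adjusted p = 0.00432) on its brightest probe set, while another fell by 0.31. Mef2c, which drives hypertrophy of chondrocytes, fell by 0.62 (adjusted p = 0.0155) on 1 of 5 probe sets, a call lost under the methods' t-test (adjusted p = 0.0948). That probe set averaged 4.82, below 6.14, and the other probe sets of Mef2c all had positive differences, of 0.04 to 0.28, that did not pass. The partners of Sox9 in cartilage, Sox5 and Sox6, differed by 0.07 (adjusted p = 0.798) and -0.10 (adjusted p = 0.367) and did not pass.

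Among 27 genes of cartilage matrix, 5 rose and 0 fell in limma (1 was lower at an unadjusted p under 0.05). Over all genes the shares were 10.1% higher and 12.6% lower. The methods' t-test called 3 higher and 0 lower. Fmod, fibromodulin, a small proteoglycan of tendon and cartilage, rose by 1.04 (adjusted p = 0.000156) on 6 of 6 probe sets, Prg4, the joint lubricant lubricin, by 0.93 (adjusted p = 0.000236) and Vit, vitrin, by 0.56 (adjusted p = 0.0115). The Vit call held under 14 of 15 alternatives other than poly-A scaling. Col2a1, the collagen of hyaline cartilage, differed by -0.11 (adjusted p = 0.617) and did not pass. Col10a1, the collagen of hypertrophic chondrocytes, read 5.41, 5.43 and 5.22 on the CD73+ arrays, against 4.71, 4.96 and 5.21 on the CD73- arrays. These overlapped by no array, but the difference of 0.39 did not pass (adjusted p = 0.0730 from limma), although it did under median centring, an intensity trend, array weights and without CD73- replicate 3. Hapln1, which links aggrecan to hyaluronan, differed by -0.06 (adjusted p = 0.776).

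Among 16 genes of aggrecan turnover and its relatives, 6 rose and 0 fell in limma (0 were lower at an unadjusted p under 0.05). Over all genes the shares were 10.1% higher and 12.6% lower. The methods' t-test called 6 of the 16 higher and 0 lower. Vcan, versican, the aggrecan relative of loose connective tissue, read 10.68, 10.62 and 10.70 on the CD73+ arrays, against 9.47, 9.35 and 9.30 on the CD73- arrays. It rose 2.46-fold (adjusted p = 0.000111 from limma), and 4 of its 8 probe sets passed. Csgalnact1, an enzyme that starts chondroitin sulfate chains, rose by 1.16 (adjusted p = 0.000122) and Has2, a hyaluronan synthase, by 0.93 (adjusted p = 0.000528), each on 2 of 2 probe sets. The aggrecan-cleaving proteases Adamts4 and Adamts5 rose by 0.83 (adjusted p = 0.000786) and 0.54 (adjusted p = 0.00229). Aggrecan itself, as given above, did not pass.

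Among 14 relatives of Comp and genes of tendon, 9 rose and 0 fell in limma (0 were lower at an unadjusted p under 0.05), against 10.1% higher and 12.6% lower over all genes. Fmod, Cilp and Matn3 are also on the cartilage matrix list, so the rise of Fmod is counted in both lists. The methods' t-test called 7 higher and 0 lower. Thbs3 averaged 8.12 ± 0.109 in CD73+ and 7.02 ± 0.156 in CD73- AD-MSCs (SD, n = 3 each). It rose by 1.09, or 2.13-fold (adjusted p = 0.000469 from limma), with no overlap. Thbs2 rose by 0.84 (adjusted p = 0.000206), on 3 of 3 probe sets, and Thbs1 by 0.27 (adjusted p = 0.0107), on 2 of 2, with the Thbs1 call lost without CD73+ replicate 1 (adjusted p = 0.0514). Thbs4, which with Thbs3 belongs to the pentameric thrombospondins like Comp, differed by -0.29 (adjusted p = 0.188) and did not pass. The tendon factors Scx, on 1 of 2 probe sets, and Mkx rose by 0.64 (adjusted p = 0.00337) and 0.44 (adjusted p = 0.0217). The third tenocyte marker, Tnmd, differed by 0.19 (adjusted p = 0.162 from limma) and did not pass. All 3 averaged below 6.14, in the range of genes not expected in these cells. The methods' t-test called 1 of the 3 higher, and the other alternatives were not read for them. The mean of the 3 tenocyte markers was 4.28 to 4.44 on the CD73+ arrays and 3.90 to 4.0 on the CD73- arrays.

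**Figure D5:**
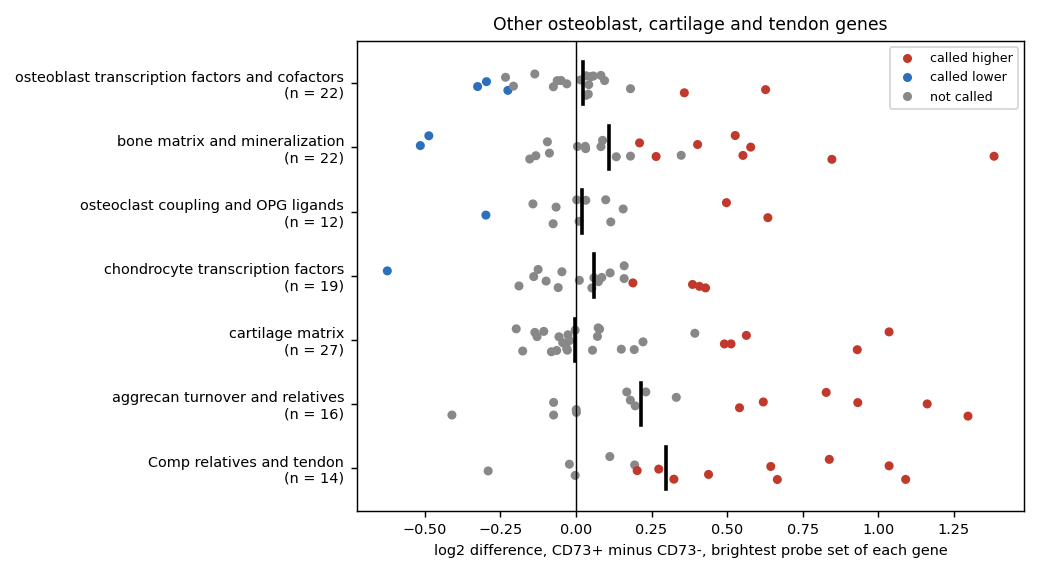
Log2 difference, CD73+ minus CD73- (x axis), of 129 other lineage genes on their brightest probe set, by list (rows, with the number measured). Fmod, Cilp and Matn3 appear in both the cartilage matrix row and the row of Comp relatives and tendon. Red points were called higher, blue lower and grey not called by limma, and black bars mark list medians, which run from -0.0029 for cartilage matrix to 0.30 for the relatives of Comp and tendon genes.

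Markers of other cell types that the gate could hold were read in the same way. For all counts of this paragraph, the shares over all genes were 10.1% called higher and 12.6% lower. Of the adipocyte markers 1 of 6 passed, Pparg, which fell by 0.24 (adjusted p = 0.0253 from limma), and the mean of the list was 4.30 to 4.32 on the CD73+ arrays and 4.34 to 4.43 on the CD73- arrays. Fabp4, a fatty acid binding protein of fat cells, was not called on its brightest probe set (-0.29, adjusted p = 0.217 from limma), but 2 of its 4 probe sets were called higher, with differences of up to 1.78. Of the pericyte and smooth muscle markers 1 of 6 passed, Cnn1 at 0.48, while a dimmer probe set of Cspg4 was called lower (-0.53), and of the skeletal muscle markers 1 of 6, Acta1 at 0.38. Of 6 endothelial, 2 Schwann and 5 osteoclast markers limma called 0, and at an unadjusted p under 0.05 the counts were 0 endothelial, 1 Schwann and 1 osteoclast marker, with 0 in each by the methods' t-test. The part of these markers in the results above was not tested.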

How the data were processed

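Total RNA of 3 CD73+ and 3 CD73- AD-MSC samples was labelled with biotin and hybridised to Affymetrix mouse arrays. The authors deposited log2 values, made with RMA according to the submitters' processing notes (version not given in the sources used here). RMA brings the arrays to nearly the same distribution, which hides any change common to most transcripts and can shrink small ratios. Of 45101 deposited probe sets, 64 controls were left out and 45037 were tested. GEO's platform annotation gave 1 symbol to 34945, several to 932 and none used here to 9160. Of the Entrez identifiers, 34741 matched RefSeq and 0 symbols changed.

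CD73+ was compared with CD73- in limma 3.58.1 (R 4.3.3) by lmFit and eBayes, two-sided, with no covariate and Benjamini-Hochberg adjustment over all 45037 probe sets (threshold 0.05). The spread rests on 4 residual degrees of freedom a probe set, 7.42 after pooling, and the number of arrays limits the precision. Each gene was represented by its single-symbol probe set of highest mean signal. The fit was tested on simulated data. Figures were drawn in Python 3.11.15 with matplotlib 3.10.9.

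The members and all gene lists were chosen with earlier results of these data known. Named were all members, up to 3 rises and 3 falls with the largest difference in each list, close partners of members and defining markers, whatever their values. Fgb was named after its value was seen. Alternatives were scaling to 12 poly-A probe sets, median centring, quantile normalization, cyclic loess, a replicate block, a filter at the median, array weights, a robust prior, an intensity trend, the methods' t-test (pooled variance per probe set), each array left out, the mean of a gene's probe sets and its probe set with the smallest p.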

Additional observations from a re-analysis of the deposited data

How the results depend on the processing

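On the deposited scale limma called 4408 probe sets higher and 4105 lower, of the lineage probe sets 4 and 3, and of the lineage genes 1 and 1. With a replicate block, 2713 probe sets were lower, 2 lineage probe sets were higher and 0 lineage genes were lower (2 at an unadjusted p under 0.05). No pairing of same-numbered samples was found (r of their deviations -0.14, 0.03 and -0.14). Quantile normalization and median centring each left 2 lineage probe sets higher. A filter at the median level, which removed 10 lineage probe sets, left 1 lower and 0 lineage genes lower (1 unadjusted). An intensity trend left 0 lineage genes lower (1 unadjusted). The probe set with the smallest p made 2 lineage genes higher. Leaving out 1 array gave 2794 to 4199 probe sets higher and 2525 to 3907 lower, 2 to 4 lineage probe sets higher and 0 to 3 lower, 1 lineage gene higher and 0 to 1 lower, and 24 to 35 wider genes higher and 5 to 7 lower. The count of higher lineage probe sets was 2 without any array except CD73- replicate 2. The count of lower ones was 0 without CD73+ replicate 1 or CD73- replicate 1 (4 and 3 unadjusted) and 1 without CD73+ replicates 2 or 3 or CD73- replicate 2. Other causes were not tested.

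Scaling to the poly-A controls adds the same amount to every difference. It gave 44707 probe sets higher and 33 lower, 16 lineage probe sets higher and 0 lower, 8 lineage genes higher and 0 lower and 128 wider genes higher and 0 lower, each 0 also at an unadjusted p under 0.05 in limma. It turned these differences positive. For Runx1 they became 0.69 (1427650_a_at) and 0.64 (1452530_a_at), for Sp7 0.88, for Sox9 0.76 (1451538_at), for Ibsp 0.73 (1417485_at) and 0.86 (1417484_at), for Tnfrsf11b 0.68 (1418309_at) and 0.30 (1449033_at) and for Acan 0.84. Beyond the members, Atf4 became 0.60, Foxc2 0.63, Foxc1 0.70, Slc20a1 0.41, Smpd3 0.44, Efnb2 0.63, Mef2c 0.30, Runx3 0.88, Sox6 0.83, Hapln1 0.86, Col2a1 0.82, Thbs4 0.64, Dlx5 0.85 and Tnfsf10 0.86.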
